A study of Homo sapiens with 6 samples.

Results

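XBP1, MANF, HYOU1 and CKAP4 are genes of the endoplasmic reticulum (ER) and its unfolded protein response. They were taken by gene symbol from the named probes of the arrays, with the probe of the highest mean where a gene had several, and make up 4 of the 14884 genes measured. They were chosen by their lower log2 intensity in FAC-treated than in untreated cells on these same arrays, so their changes are given as a description with no test. Gene expression was measured with 1 array per culture in ARPE-19, a long-established human cell line derived from the retinal pigment epithelium and kept for 4 weeks in 1% serum to differentiate. The untreated group (n = 3) received vehicle for 2 days, and the FAC group (n = 3) received 250 µM FAC for 2 days, both in medium without serum. FAC is the usual abbreviation of ferric ammonium citrate in iron research, and the series calls these cells iron-treated. Both groups are cultures of 1 cell line, with no genetic change named in the labels.

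The unfolded protein response adjusts the folding capacity of the ER to its load of secreted and membrane proteins. It is run by the sensors IRE1 (gene ERN1), PERK (gene EIF2AK3) and ATF6. IRE1 splices the XBP1 message so that it encodes an active transcription factor, ATF6 is cut to release another, and both raise ER chaperones and degradation genes. PERK phosphorylates the initiation factor eIF2alpha, which favours translation of ATF4, and ATF4 in turn induces transcription of DDIT3, the gene of the stress factor CHOP. The retinal pigment epithelium is a secretory and phagocytic layer, and its ER supplies matrix, growth factors and lysosomal enzymes.

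Levels below are log2 intensities, and a change is the mean of the FAC arrays minus the mean of the untreated arrays on the log2 scale, ± SE from a limma fit over all genes. Calls are limma's Benjamini-Hochberg adjusted p under 0.05 over the 14884 genes. By this rule 275 genes fell (1.85%) and 280 rose (1.88%), 555 together (3.73%), and the median change over all genes was -0.004. The 555 became 250, 150, 147, 203 and 215 without untreated replicate 1, untreated replicate 3 and FAC replicates 1, 2 and 3 in turn, and 447 without untreated replicate 2. The array medians lay between 6.03 and 6.09. Untreated replicate 2 differed from untreated replicates 1 and 3 in several genes. Its mean deviation over 12 measured proliferation genes was -0.05 against -0.38 and -0.30, and the pigment enzyme genes TYR (6.88 against 7.97 and 7.86) and TYRP1 (9.48 against 10.45 and 10.28) were low on it. Of 19 retinal pigment epithelium markers, 17 were measured. OTX2 (11.10 ± 0.10, SD, n = 3), TYRP1 (10.07 ± 0.52) and KRT18 (11.08 ± 0.02) were bright in untreated cells, whereas the visual cycle gene RPE65 (5.67 ± 0.15) and BEST1 (5.89 ± 0.02) lay among the dimmest 33.3% of genes. No detection calls came with the values, so absence could not be read from such levels. In a bulk array fewer cells of a type and less RNA per cell cannot be told apart.

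In FAC-treated cells all 4 genes were lower by 1.22-fold to 1.29-fold, and in each the 3 FAC arrays lay below the 3 untreated arrays. Such a separation was seen in 13% of all genes, and the opposite one in 10.4%. All 4 were among the genes that fell by the rule above (1.85% of all genes, 3.73% in either direction), which the choice of the genes fixes and from which nothing is read. None of the 4 was among the dimmest 33.3% of genes. Over the 4 genes together the mean deviation from each gene's own average was 0.13, 0.17 and 0.17 on untreated replicates 1 to 3 and -0.17, -0.16 and -0.15 on FAC replicates 1 to 3, so untreated replicate 2 did not stand apart here.

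**Figure D1:**
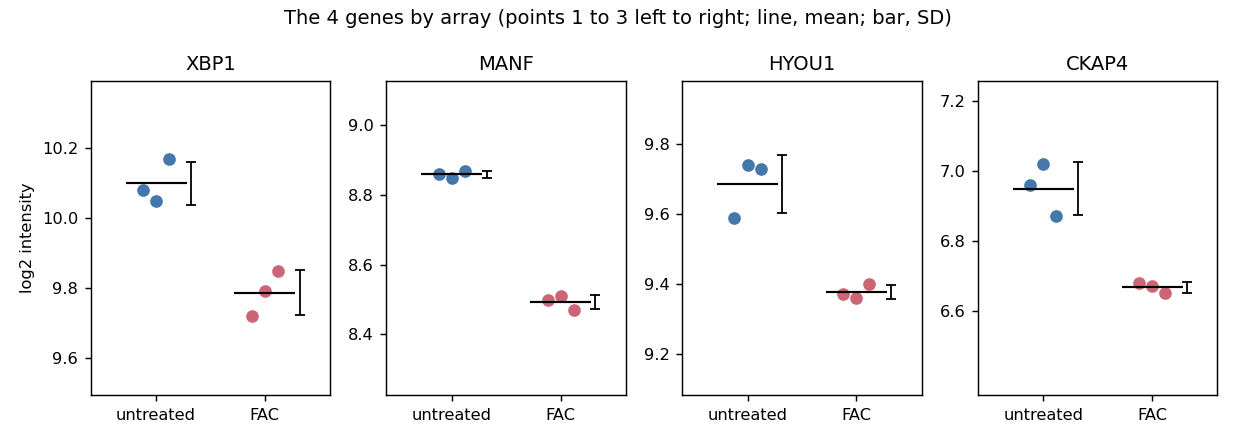
Log2 intensity of XBP1, MANF, HYOU1 and CKAP4 on each of the 3 untreated and 3 FAC arrays (points, replicates 1 to 3 from left to right), with the group mean (line) and SD (bar); each panel spans the same range of 0.9. In every panel the FAC points lie below the untreated points, by a gap of 0.35 for MANF and of 0.19 or 0.20 for the others.

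XBP1 encodes the transcription factor of the IRE1 branch. It measured 10.08, 10.05 and 10.17 on untreated replicates 1 to 3, and 9.72, 9.79 and 9.85 on FAC replicates 1 to 3. The lowest untreated and the highest FAC array lay 0.20 apart, and the spread was alike in both groups (SD 0.06 each). The change was -0.31 ± 0.06, or 1.24-fold lower. The table holds 1 named probe for the gene, so spliced and unspliced messages cannot be told apart. RefSeq gives 2 start sites for XBP1. XBP1 is itself known as a target of ATF6. The 250 bases before the upstream start are printed because they hold an ER stress response element (ERSE), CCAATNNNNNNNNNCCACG, to which ATF6 binds with the factor NF-Y. Those before the other start hold no ERSE and no CCAAT, and CCACG at 2 places. In the printed window capitals mark the match, which runs from base -52 to base -34 (GRCh38.p14, chr22:28800570-28800819, minus strand, written 5′ to 3′ along the gene).
XBP1 upstream window: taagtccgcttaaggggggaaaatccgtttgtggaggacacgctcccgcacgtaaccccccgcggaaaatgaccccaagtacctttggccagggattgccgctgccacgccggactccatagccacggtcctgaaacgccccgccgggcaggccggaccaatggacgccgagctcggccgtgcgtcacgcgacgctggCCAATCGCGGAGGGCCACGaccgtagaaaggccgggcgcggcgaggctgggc

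HYOU1 encodes a large ER chaperone of the HSP70 superfamily that serves as nucleotide exchange factor for BiP. Its arrays read 9.59, 9.74 and 9.73 without FAC and 9.37, 9.36 and 9.40 with FAC. Untreated replicate 1 was the lowest of its group and still lay 0.19 above the highest FAC array. The change was -0.31 ± 0.06, or 1.24-fold lower, and the FAC arrays were tighter (SD 0.02 against 0.09). A second, dim probe of HYOU1 measured 5.48, 5.68 and 5.67 without and 5.36, 5.40 and 5.19 with FAC. Its groups did not overlap either, and its difference was -0.29. The window of HYOU1 holds the related element ERSE-II, ATTGGNCCACG, at 2 places, bases -185 to -175 and -79 to -69, both on the opposite strand. The first overlaps a match at bases -188 to -181 to TGACGTGG, the unfolded protein response element (UPRE) bound by XBP1 and ATF6, and capitals mark all 3 (GRCh38.p14, chr11:119057206-119057455, minus strand).
HYOU1 upstream window: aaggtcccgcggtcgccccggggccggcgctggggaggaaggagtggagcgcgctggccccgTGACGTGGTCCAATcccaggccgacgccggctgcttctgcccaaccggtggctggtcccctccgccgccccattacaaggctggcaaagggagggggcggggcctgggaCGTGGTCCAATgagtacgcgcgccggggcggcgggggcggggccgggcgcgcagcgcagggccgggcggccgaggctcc

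MANF encodes a small ER protein that is secreted under stress and protects retinal and nerve cells. It was the tightest of the 4 genes, with 8.86, 8.85 and 8.87 on the untreated arrays and 8.50, 8.51 and 8.47 on the FAC arrays. The untreated values spanned about as little as the FAC values (SD 0.01 and 0.02), and the groups lay 0.35 apart. The change was -0.37 ± 0.05, or 1.29-fold lower. The full ERSE, ERSE-II and UPRE letters were not found in its window. The short parts of which the ERSE is built were there, CCAAT at 3 places and CCACG once on the opposite strand, as the capitals show (GRCh38.p14, chr3:51385041-51385290, plus strand).
MANF upstream window: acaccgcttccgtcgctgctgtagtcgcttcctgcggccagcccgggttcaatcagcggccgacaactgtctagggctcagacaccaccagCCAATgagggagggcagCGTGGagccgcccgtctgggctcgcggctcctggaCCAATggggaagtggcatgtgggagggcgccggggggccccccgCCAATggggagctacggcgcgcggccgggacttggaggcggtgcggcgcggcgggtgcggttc

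CKAP4 encodes a membrane protein that spaces the sheets of the rough ER and also acts at the cell surface as a receptor for the Wnt inhibitor DKK1. It measured 6.96, 7.02 and 6.87 on the untreated arrays, and 6.68, 6.67 and 6.65 on the FAC arrays. Untreated replicate 2 was the highest of its group, and the lowest untreated array, replicate 3, lay 0.20 above every FAC array. The change was -0.28 ± 0.06, or 1.22-fold lower. Its window, the richest of the 4 in G and C (83.6% against 67.6% for XBP1, 71.6% for MANF and 77.6% for HYOU1), holds CCACG at 2 places on the opposite strand, in capitals, and no CCAAT (GRCh38.p14, chr12:106248021-106248270, minus strand).
CKAP4 upstream window: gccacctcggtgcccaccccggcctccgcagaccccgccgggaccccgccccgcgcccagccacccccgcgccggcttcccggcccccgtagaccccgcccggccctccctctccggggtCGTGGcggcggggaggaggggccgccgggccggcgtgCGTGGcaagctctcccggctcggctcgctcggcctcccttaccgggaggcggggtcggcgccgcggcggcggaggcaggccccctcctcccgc

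The 3 genes most like each of the 4 were found among 7162 or 7163 genes with a mean level at or above the median, by the root mean square (RMS) difference between array values, each gene centred on its own mean over 6 arrays. The nearest to XBP1 were FZD7 (RMS difference 0.027), MOB3B (0.029) and SPATA7 (0.034). NIPAL3 (0.021), EGLN1 (0.023) and MTFP1 (0.028) were nearest to MANF. ANKRD50 (0.020), ATXN1 (0.027) and SCG5 (0.028) lay nearest to HYOU1. For CKAP4 they were TSPAN4 (0.028), HM13 (0.031) and the ER isomerase gene PPIB (0.036). The 4 genes differed more from each other than from these nearest genes, by 0.060 (MANF and HYOU1) to 0.091 (XBP1 and CKAP4). Set among all the candidates, their ranks ran from 66 (HYOU1 for XBP1) to 504 (XBP1 for CKAP4). The 4 were chosen by their fall, so nothing is read from these ranks.

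The sensors upstream of these genes were measured at the level of their messages, which do not report their activation. None of the 11 measured sensors and transducers other than XBP1 passed the limma test. A change below 0 was seen in 10 of them (51.5% of all genes), with a median of -0.04. Of the 11, 1 was lower at an unadjusted p under 0.05 (9.06% of all genes). That 1 was ERN1, the gene of IRE1. It read 7.22, 7.07 and 7.16 without and 6.87, 7.04 and 6.87 with FAC. Its groups did not overlap, but untreated replicate 2 and FAC replicate 2 lay only 0.03 apart (-0.22 ± 0.07, adjusted p = 0.149). EIF2AK3 (-0.05 ± 0.05, adjusted p = 0.717) and ATF6 (-0.01 ± 0.05, adjusted p = 0.932) did not pass. For ATF6 the 95% interval of the change ran from -0.13 to 0.11. CREB3L2, a related transmembrane transcription factor, measured -0.07 ± 0.05 (adjusted p = 0.566).

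Of the other chaperones and co-chaperones of the ER lumen, 14 were measured, 13 of them had a change below 0 (51.5% of all genes did), and 2 fell (FKBP7 and PPIB), against 1.85% of all genes. Over these 14 genes the median change was -0.19, against -0.004 over all genes tested. At an unadjusted p under 0.05 there were 9 lower and none higher, where 9.06% of all genes were lower and 8.14% higher. In 11 of the 14 all FAC arrays lay below all untreated arrays, as in 13% of all genes. FKBP7, an ER prolyl isomerase, measured 9.15, 9.15 and 9.16 without and 8.76, 8.60 and 8.61 with FAC, so that its groups lay 0.38 apart. It fell by 0.50 on the log2 scale (SE 0.06, 1.41-fold lower, limma's adjusted p = 0.0075). PPIB, the isomerase cyclophilin B, went from 12.83 ± 0.03 to 12.59 ± 0.01 (SD, n = 3), a change of -0.25 ± 0.05 (adjusted p = 0.0378). Its call did not hold in 8 of 14 alternative settings, though its change stayed between -0.26 and -0.23.

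The lectin chaperone gene CALR came next and did not pass (adjusted p = 0.054). It measured 13.41, 13.44 and 13.44 without and 13.22, 13.22 and 13.19 with FAC, and its groups lay 0.19 apart (-0.22 ± 0.05). Its membrane-bound relative CANX measured -0.06 ± 0.05 (adjusted p = 0.598). CRELD2, a secreted ER stress protein often induced along with MANF, measured 7.56, 7.47 and 7.58 without and 7.28, 7.32 and 7.34 with FAC, and did not pass either (-0.22 ± 0.06, adjusted p = 0.0761). SDF2L1, a partner of the BiP co-chaperones, measured -0.22 ± 0.06 (adjusted p = 0.109). CDNF, the one paralog of MANF, measured 8.03, 7.99 and 8.07 without and 7.94, 7.84 and 7.82 with FAC. The FAC arrays were the lower ones there too, by a gap of 0.05 (-0.16 ± 0.06, adjusted p = 0.194). HSPA5 (BiP), HSP90B1, DNAJB9 and DNAJC3, well known chaperone targets of the response, had no named probe and were not analysed here, which leaves the list with 16 of its 29 genes.

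Oxidative folding makes disulfide bonds in the ER. Of 16 measured genes of this process 15 had a change below 0 (51.5% of all genes did), with a median of -0.10, and 2 fell (1.85% of all genes). ERO1A, the oxidase that recharges protein disulfide isomerase and a gene also known to be induced by hypoxia, measured 9.99, 10.05 and 10.09 without and 9.67, 9.64 and 9.67 with FAC. The groups lay 0.32 apart (-0.38 ± 0.05, 1.30-fold lower, adjusted p = 0.0103). PRDX4, the ER peroxiredoxin, measured 7.75, 7.72 and 7.83 without and 7.50, 7.41 and 7.30 with FAC, with FAC replicate 3 the lowest (-0.36 ± 0.07, adjusted p = 0.0283). ERO1A failed to pass in 4 of 14 alternative settings and PRDX4 in 8, with the change of each below 0 in all of them. Of the 25 genes of this list, P4HB, PDIA3, PDIA4 and PDIA6 are among the 9 not analysed here.

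**Figure D2:**
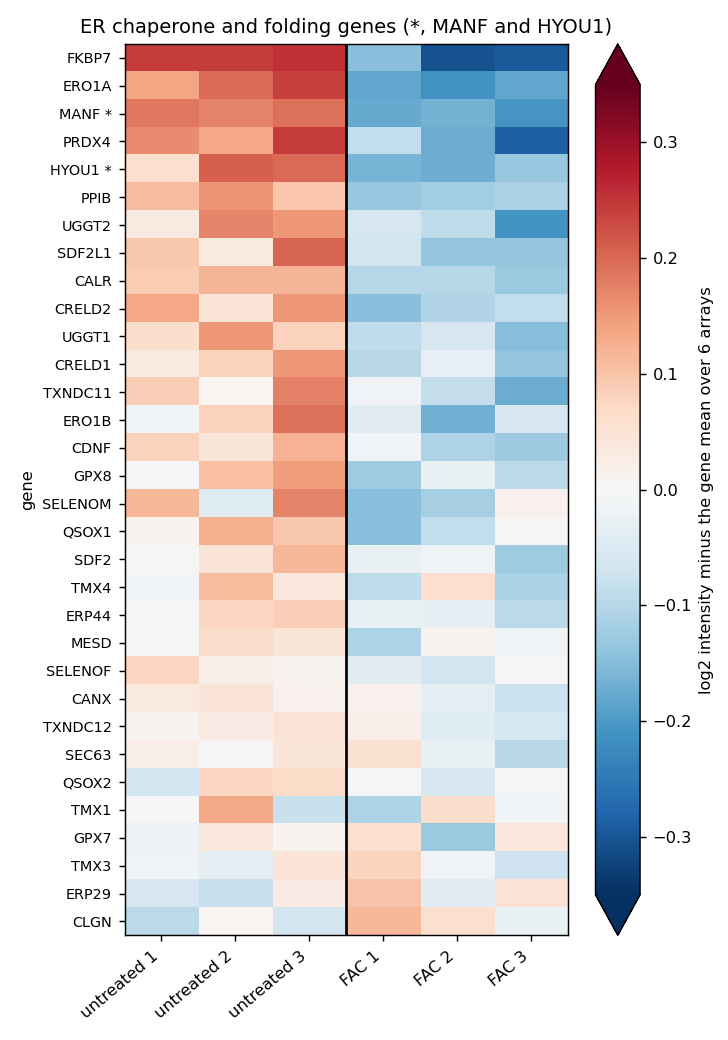
Log2 intensity of the 32 measured ER chaperone and oxidative folding genes on each array, minus the gene's own mean over the 6 arrays (colour, red above and blue below), ordered by the change with FAC; asterisks mark MANF and HYOU1. The upper rows are red on the 3 untreated and blue on the 3 FAC arrays, FKBP7 (-0.50) at the top, while CLGN (0.10) at the bottom runs the other way.

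KDEL receptors return escaped chaperones from the Golgi to the ER, and the coat and cargo receptor genes on the same list carry proteins outward. KDELR3, a receptor gene induced by ER stress, measured 10.17, 10.25 and 10.15 without and 9.77, 9.75 and 9.68 with FAC. It fell, with a gap of 0.37 between the groups (-0.45 ± 0.06, 1.37-fold lower, adjusted p = 0.00775), and passed in all 14 alternative settings, as FKBP7 did. KDELR1 measured -0.09 ± 0.06 (adjusted p = 0.503). In all, 1 of 18 measured genes of this list fell (1.85% of all genes) and none rose. A change below 0 was seen in 16 (51.5% of all genes), and the median was -0.10. In ER-associated degradation, the route by which misfolded proteins reach the proteasome, none of 16 measured genes passed the limma test. None was past an unadjusted p of 0.05, 11 had a change below 0 (51.5% of all genes did), and the median was -0.03. SEL1L, the scaffold of the HRD1 ligase, measured -0.12 ± 0.06 (adjusted p = 0.341), and DERL1 measured -0.11 ± 0.05 (adjusted p = 0.346). HERPUD1 and EDEM1 were not analysed here.

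The translocon and signal peptide list had no call among 19 measured genes and a median of -0.02. Of the 19, 1 was lower and 1 higher at an unadjusted p under 0.05 (9.06% and 8.14% of all genes), and 11 had a change below 0 (51.5% of all genes). TRAM2, a translocon protein, measured 0.20 ± 0.05 (adjusted p = 0.0821), and SEC11C, a signal peptidase subunit, measured -0.23 ± 0.08 (adjusted p = 0.203). Among 10 measured genes of ER calcium handling none passed and 2 were lower at an unadjusted p under 0.05 (9.06% of all genes). These were NUCB2 (-0.19 ± 0.05, adjusted p = 0.123) and SDF4 (-0.16 ± 0.05, adjusted p = 0.145). Of the 8 substrates of IRE1-dependent decay only HGSNAT had a named probe (-0.08 ± 0.05, adjusted p = 0.507), so that list says nothing on such decay.

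CKAP4 stands among the proteins that shape the ER. None of the other 16 measured genes of this kind passed the limma test, 11 had a change below 0 (51.5% of all genes did), and the median was -0.02. Of the 16, 2 were lower at an unadjusted p under 0.05 (9.06% of all genes). Those 2 were RRBP1, a ribosome receptor of the rough ER sheets, and LNPK, a protein of tubule junctions. RRBP1 measured 8.85, 8.97 and 9.01 without and 8.76, 8.77 and 8.73 with FAC (-0.19 ± 0.06, adjusted p = 0.153), and LNPK measured -0.19 ± 0.06 (adjusted p = 0.154). The tubule-forming reticulon RTN4 measured -0.01 ± 0.05, with a 95% interval from -0.14 to 0.12 (adjusted p = 0.954). Of 5 measured genes (of 7) tied to the palmitoylation and surface role of CKAP4, among them Dickkopf and LRP genes, 1 rose and none fell, with a median of -0.04. At an unadjusted p under 0.05, 2 were lower (DKK1 and LRP6) and 2 higher (DKK2 and DKK3), where 9.06% of all genes were lower and 8.14% higher. The gene that rose was DKK2. It measured 6.53, 6.56 and 6.41 without and 7.14, 6.94 and 7.01 with FAC (0.53 ± 0.07, 1.44-fold higher, adjusted p = 0.00971), and did not pass in 1 of 14 alternative settings, the test of every probe (adjusted p = 0.0508). DKK1, the ligand of CKAP4, measured 11.29, 11.17 and 11.24 without and 11.03, 10.97 and 10.99 with FAC, a gap of 0.14 that did not pass (-0.23 ± 0.06, adjusted p = 0.0658).

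**Figure D3:**
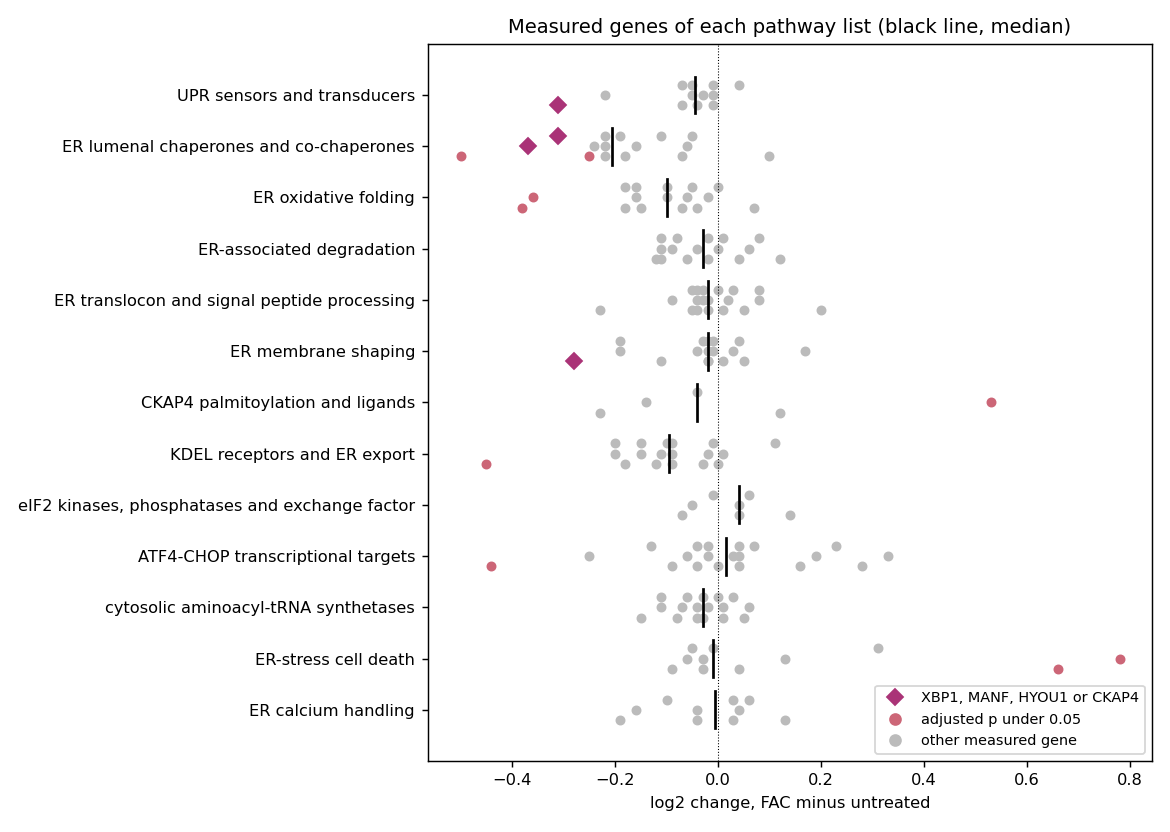
Change with FAC (log2) of every measured gene in 13 pathway lists, 1 point per gene, with the list median as a black line, the 4 genes as purple diamonds and other genes at an adjusted p under 0.05 in red. The medians of the chaperone list with MANF and HYOU1 (-0.21), oxidative folding (-0.10) and ER export (-0.10) lie left of 0, and the others lie between -0.04 and 0.04.

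The ATF4 arm was read from ATF4, DDIT3, TRIB3, ASNS and SESN2, and none of these 5 passed the limma test or an unadjusted p of 0.05. ATF4 measured 10.31, 10.33 and 10.34 without and 10.28, 10.36 and 10.26 with FAC, and the groups overlapped. Its change was -0.03 ± 0.05, with a 95% interval from -0.15 to 0.09 (adjusted p = 0.842), though ATF4 is controlled mainly at translation, which an array does not measure. DDIT3, the gene of CHOP, measured 7.46, 7.21 and 7.46 without and 7.55, 7.45 and 7.60 with FAC. Its groups overlapped by 0.01, and untreated replicate 2 was the low array (0.16 ± 0.08, interval -0.03 to 0.35, adjusted p = 0.387). TRIB3, a pseudokinase induced by CHOP, measured 6.96, 6.94 and 6.88 without and 7.01, 6.77 and 7.12 with FAC (0.04 ± 0.09, interval -0.17 to 0.24, adjusted p = 0.877). The asparagine synthetase gene ASNS measured -0.04 ± 0.06 (interval -0.18 to 0.11, adjusted p = 0.827), and the stress protein gene SESN2 measured -0.02 ± 0.06 (interval -0.15 to 0.11, adjusted p = 0.888). The lower bounds for ATF4, TRIB3, ASNS and SESN2 lay between -0.18 and -0.15.

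Of 20 measured targets of ATF4 and CHOP, 1 fell (1.85% of all genes did), none rose (1.88%), and the median was 0.01. At an unadjusted p under 0.05, 3 were lower and 2 higher (9.06% and 8.14% of all genes). All FAC arrays lay below all untreated arrays in 4 of the 20 and above them in 1, as in 13% and 10.4% of all genes. The gene that fell was VLDLR, a lipoprotein receptor also known to be induced by hypoxia, which measured 10.14, 10.06 and 10.24 without and 9.73, 9.73 and 9.66 with FAC (-0.44 ± 0.06, adjusted p = 0.0114). It did not pass in 3 of 14 alternative settings. None of 7 measured genes around eIF2 passed the limma test or an unadjusted p of 0.05, with a median of 0.04. OMA1, a mitochondrial protease that relays stress to eIF2, measured 0.14 ± 0.07 (adjusted p = 0.377), and the kinase gene EIF2AK4 measured -0.07 ± 0.07 (adjusted p = 0.645). None of 17 measured aminoacyl-tRNA synthetase genes, a class that ATF4 induces, passed, and 12 had a change below 0 (51.5% of all genes did). Of the 17, 1 was lower at an unadjusted p under 0.05 (9.06% of all genes). That was LARS1 (-0.15 ± 0.05, adjusted p = 0.189), followed by GARS1 (-0.11 ± 0.05, adjusted p = 0.334).

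Of 11 measured genes of cell death under ER stress, 2 rose (1.88% of all genes did) and none fell (1.85%). Both encode BH3-only proteins, which promote apoptosis and are not specific to ER stress. BCL2L11, the gene of BIM, measured 7.82, 7.77 and 7.75 without and 8.39, 8.51 and 8.41 with FAC, a gap of 0.57 between the groups (0.66 ± 0.06, 1.58-fold higher, adjusted p = 0.00181). PMAIP1, the gene of NOXA, measured 7.51, 7.77 and 7.58 without and 8.37, 8.46 and 8.36 with FAC (0.78 ± 0.08, 1.71-fold higher, adjusted p = 0.00334). At an unadjusted p under 0.05 there were 3 higher (8.14% of all genes) and none lower. The third was BCL2, which encodes an inhibitor of apoptosis. It measured 8.14, 7.62 and 8.12 without and 8.35, 8.28 and 8.19 with FAC, with untreated replicate 2 the low array, and did not pass (0.31 ± 0.13, adjusted p = 0.286). The median of the list was -0.01, and 6 of its 11 measured genes had a change below 0.

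**Figure D4:**
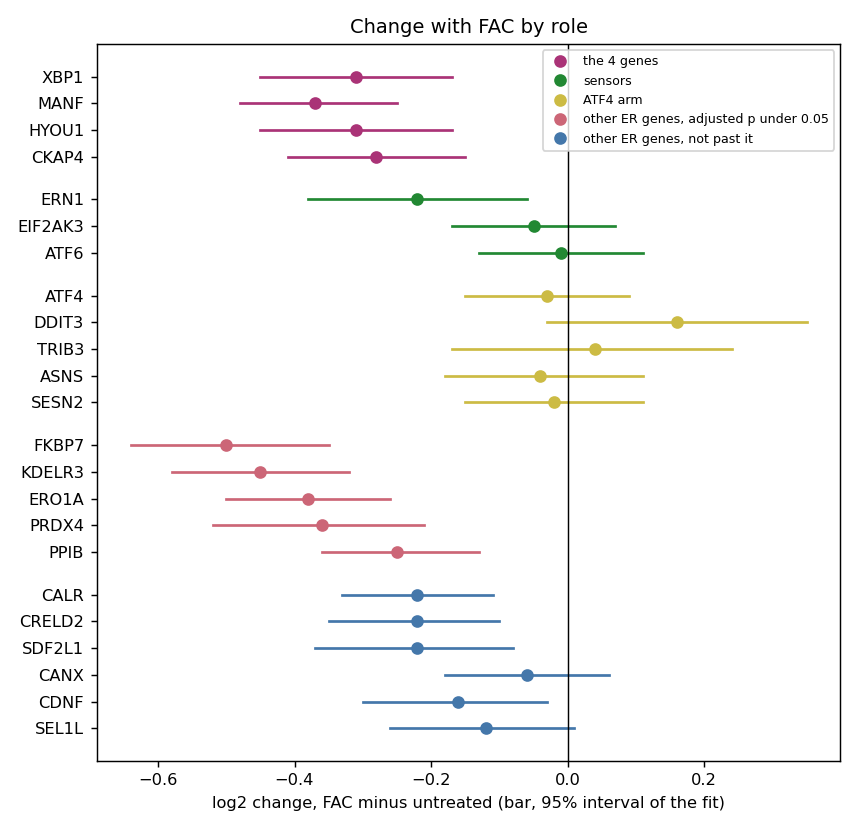
Change with FAC (log2, points) with its 95% interval (bars) for XBP1, MANF, HYOU1 and CKAP4, the 3 sensor genes, the 5 ATF4-arm genes and 11 other ER genes. XBP1, MANF, HYOU1 and CKAP4 lie between -0.37 and -0.28, the ATF4-arm genes between -0.04 and 0.16, and FKBP7 and KDELR3 farthest to the left at -0.50 and -0.45.

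Over all 15 pathway lists, with the 4 genes left out, 180 of 301 genes were measured, 6 fell (1.85% of all genes did) and 3 rose (1.88%). Of the 180, 126 had a change below 0 (70.0%, against 51.5% of all genes). At an unadjusted p under 0.05, 32 were lower and 8 higher, where 9.06% of all genes were lower and 8.14% higher. The 6 that fell were ERO1A, FKBP7, KDELR3, PPIB, PRDX4 and VLDLR, and the 3 that rose were BCL2L11, DKK2 and PMAIP1. The count of 6 became 11 without the dimmest 33.3% of genes and 15 when limma's variance prior was let follow intensity, and 3 without untreated replicate 3 and 2 without FAC replicate 1.

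The elements seen before XBP1 and HYOU1 are rare. Of 35116 RefSeq windows (250 bases before and 50 after a start), 27 hold an ERSE (0.0769%) and 19 an ERSE-II (0.0541%) on either strand, while 0.729% hold the shorter UPRE. The parts CCACG and CCAAT alone are found in 38.1% and 34.6% of windows, so their presence before MANF and CKAP4 is common. The 25 genes with an ERSE include XBP1, CALR, CANX, CRELD2, ERO1B and the translocon-associated gene SERP1, and also HSPA5, HSP90B1 and PDIA6, which were not analysed here. Of the 10 measured ERSE genes other than XBP1, 7 had a change below 0 (51.5% of all genes did), with a median of -0.09. None of them fell by the limma test, and SYNPO, an actin-associated gene, rose (0.37 ± 0.07, adjusted p = 0.0298). SERP1 (-0.18 ± 0.07, adjusted p = 0.219) and ERO1B (-0.18 ± 0.07, adjusted p = 0.246) did not pass. ERSE-II was found before 14 measured genes other than HYOU1, with a median change of -0.03. Of these the glycogen synthase gene GYS1 fell (-0.45 ± 0.07, adjusted p = 0.0207), and its window overlaps that of RUVBL2 (-0.02 ± 0.05, adjusted p = 0.894), which holds the same match. Before KDELR3 a UPRE lies at bases -46 to -39. Of 117 measured genes with a UPRE other than HYOU1, 4 fell, KDELR3 among them, and 1 rose (1.85% and 1.88% of all genes). Their median change was -0.03, and 68 of the 117 had a change below 0 (51.5% of all genes did).

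The matches of 4 list genes that were lower with FAC, picked after their values were seen, are shown for comparison, with the match in capitals (GRCh38.p14, plus strand of each). Other measured list genes with a match are not shown. Of these, CANX (ERSE, -0.06) and NUCB1 (ERSE-II, 0.03) lay near 0, and ERO1B (ERSE) measured -0.18. With a UPRE, SEC62 (0.02), VCP (0.01), CARS1 (0.01), SEC16A (-0.02), SRP19 (-0.05) and SEC23A (-0.09) lay nearer to 0 than TXNDC11 (-0.18). CALR lies on chromosome 19, and the other 3 on chromosome 22. A match describes letters only, and no binding was measured here.
CALR, ERSE, chr19:12938378-12938408: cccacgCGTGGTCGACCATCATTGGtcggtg
CRELD2, ERSE, chr22:49918548-49918578: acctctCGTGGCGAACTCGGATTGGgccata
SDF2L1, ERSE-II, chr22:21642108-21642130: cggaagCGTGGACCAATcaaaac
KDELR3, UPRE, chr22:38468044-38468063: ccctggCCACGTCAccgccc

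**Figure D5:**
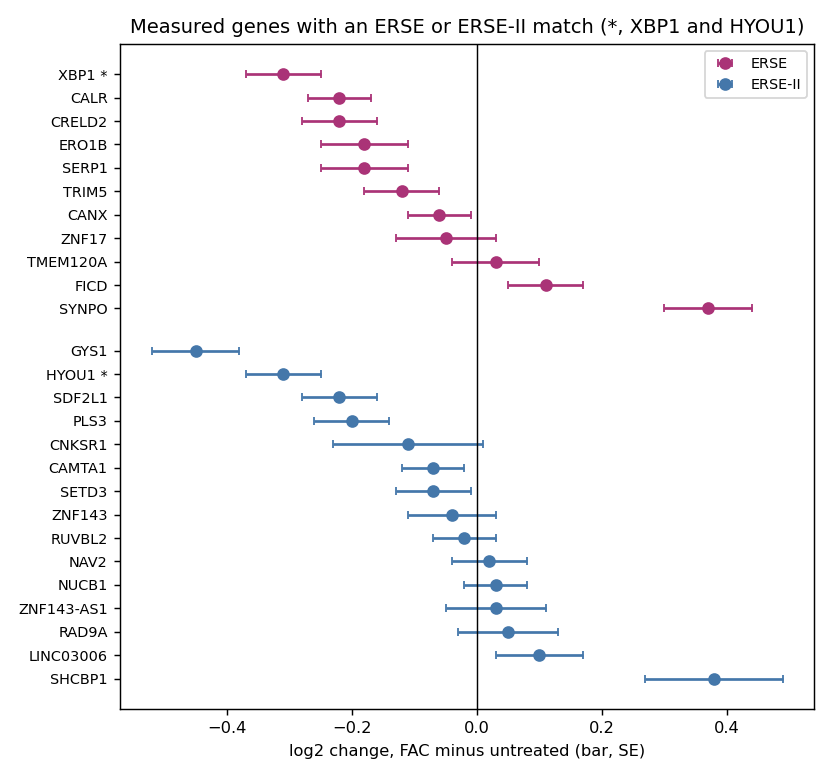
Change with FAC (log2, points) ± SE (bars) of the 11 measured genes with an ERSE and the 15 with an ERSE-II in their RefSeq promoter window; asterisks mark XBP1 and HYOU1. Among the ERSE genes XBP1 (-0.31), CALR (-0.22) and CRELD2 (-0.22) lie farthest to the left and SYNPO (0.37) to the right.

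Markers of the retinal pigment epithelium, of other cell types and of proliferation were read beside these results, and their part in them was not tested. None of the 17 measured retinal pigment epithelium markers passed the limma test, and their median change was -0.01. At an unadjusted p under 0.05, MITF was lower (-0.15 ± 0.06), and RLBP1 (0.31 ± 0.08) and RGR (0.32 ± 0.09) were higher. Of all genes 9.06% were lower and 8.14% higher by that measure. Of 4 measured fibroblast and smooth muscle markers (of 11), 1 fell (1.85% of all genes did). It was LUM, the gene of a matrix proteoglycan (-0.56 ± 0.08, adjusted p = 0.0104). With LUM, the proteoglycan gene DCN (-0.38 ± 0.09, adjusted p = 0.0539) and the actin-binding gene TAGLN (-0.26 ± 0.07, adjusted p = 0.113) were lower at an unadjusted p under 0.05 (9.06% of all genes). In these 3 of 4 all FAC arrays lay below all untreated arrays, as in 13% of all genes. The fourth, DES, went the other way with overlapping groups (0.14 ± 0.18, adjusted p = 0.757). The median change over the 4 was -0.32, below 0 like the changes of XBP1, MANF, HYOU1 and CKAP4 and of 51.5% of all genes. The mean level over the 4 ranged from 7.72 to 7.90 on the untreated and from 7.50 to 7.61 on the FAC arrays. Among 6 measured blood and endothelial markers (of 12), 1 fell, CSF1R (-0.37 ± 0.07, adjusted p = 0.0365), against 1.85% of all genes. Of these 6, 2 were lower and none higher at an unadjusted p under 0.05 (9.06% and 8.14% of all genes). The median change was -0.06, with mean levels of 7.09 to 7.27 and of 7.03 to 7.11. None of 6 measured neuron, glia and photoreceptor markers (of 12) passed the limma test, with mean levels of 7.04 to 7.09 and of 7.05 to 7.12. Of these, 1 was lower and 2 higher at an unadjusted p under 0.05 (9.06% and 8.14% of all genes). None of the values of these markers was 0, and detection could not be judged. Of 12 measured proliferation genes (of 14), 9 rose (1.88% of all genes did) and none fell, with mean levels of 8.61 to 8.94 and of 9.19 to 9.27. Their median change was 0.52, and in all 12 the FAC arrays lay above all untreated arrays, as in 10.4% of all genes. Over these genes untreated replicate 2 was the untreated array nearest to the FAC arrays (mean deviation -0.05, against 0.28, 0.25 and 0.20 on FAC replicates 1 to 3). Leaving it out therefore does not lessen the difference in proliferation genes, and it is no test of their part. Without it, 9 of the 14 other chaperone genes were again lower at an unadjusted p under 0.05, and their median was -0.18.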

How the data were processed

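Total RNA (250 ng) of 6 ARPE-19 cultures was amplified, biotin labelled and hybridised, per the labels' protocols. The authors deposited 53617 probes on the log2 scale (2.41 to 14.22, the unit read from this range). The submitters' processing notes list RMA and Partek 6.6, with no order or role. The platform annotation names 16098 probes with 1 gene each, and 37519 are unnamed here. They cover 14884 genes, for 779 of which the probe with the highest mean was taken.

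The FAC and untreated arrays were tested with lmFit and eBayes of limma 3.58.1 (R 4.3.3). The 2-sided p-values were adjusted by Benjamini-Hochberg across the 14884 genes. Alternatives were filtering, normalization, centring, variance prior, array weights, probe choice, a replicate block and each array left out. On simulated data for this comparison (14884 genes, 200 changed) it recovered 16.7% of changes of 0.3, 71.8% of 0.5 and 98.3% of 1, with 5.48% false calls.

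The 4 genes, the lists and the element search were chosen with earlier results of these data known. The genes named are the 4, the ATF4-arm genes, a fixed set of sensors, chaperones and degradation genes, up to 4 called genes per pathway list (otherwise the 2 with the smallest p) and the 3 nearest in pattern. Other names, such as SYNPO, GYS1, SERP1, ERO1B, TXNDC11, CLGN, KDELR1, BCL2, DKK1 and the markers, were chosen after their values were seen. All 4 genes matched RefSeq promoter windows (GRCh38.p14), searched on both strands.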

Additional observations from a re-analysis of the deposited data

How the results depend on the processing

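The changes of XBP1, MANF, HYOU1 and CKAP4 kept their direction in all 14 alternatives, with XBP1 between -0.35 and -0.28, HYOU1 between -0.36 and -0.28 and CKAP4 between -0.32 and -0.25. MANF, whose replicates were the tightest, moved by more than their spread with quantile normalization (-0.34) and with centring on array medians (-0.38). The count of 555 genes called became 840 without the dimmest 33.3% of genes, 1026 when the variance prior was let follow intensity, 254 when every probe was tested and 184 with the replicate number as a block, and it lay between 147 and 447 without any 1 array. In the same order the 6 pathway genes that fell became 11, 15, 2 and 2, and between 2 and 4 without any 1 array, and the 3 that rose stayed between 2 and 4 throughout. Arrays of the same replicate number showed no shared deviation. They deviated from their group means with correlations of -0.023, -0.026 and -0.15, and 0 of 6 arrays correlated best with its own number. Whether same-numbered cultures were handled together cannot be read from these correlations. The count of chaperone genes at an unadjusted p under 0.05, read after seeing the data, was 9 in the other settings and between 7 and 9 without any 1 array. With 3 arrays a group and no detection calls, small changes can be missed. In simulated data with 200 changed genes, 16.7% of changes of 0.3 were recovered. The adjusted threshold depends on how many genes change, and 555 were called here, so that share need not hold for these arrays.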
